A study of Mus musculus with 6 samples.

Results

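The genes described here are 10 components of the mammalian circadian clock, measured in primary mouse pancreatic stellate cells (PSCs), one source of cancer-associated fibroblasts (CAFs) in pancreatic ductal adenocarcinoma (PDAC). They were taken by name, as the rows of the count table whose Ensembl identifiers belong to Clock, Bhlhe40, Bhlhe41, Per1, Per2, Per3, Cry1, Cry2, Nr1d1 and Dbp in GENCODE release M21. These are 10 of the 55426 rows, and all 10 passed the filter on low counts. PSCs isolated from adult wild-type C57BL/6 mice of both sexes and used at early passages were grown in Matrigel on the upper side of a transwell and shared medium with organoids of mT3 cells below. mT3 is a mouse PDAC cell line. The cocultures were kept for 48 h under normoxia (21% O2) or hypoxia (1% O2), with 3 RNA samples at each oxygen level, and all 6 samples share the coculture with mT3 organoids. All samples were taken at 1 time point and the labels give no synchronization of the cells, so a difference in level cannot be told apart from a difference in clock phase.

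The circadian clock is a transcriptional feedback loop that runs in nearly every cell type, fibroblasts included. CLOCK pairs with BMAL1 (the product of Arntl) and activates genes through DNA elements called E-boxes, among them the genes of the PER and CRY proteins, which return to the nucleus and inhibit the CLOCK:BMAL1 dimer. BHLHE40 and BHLHE41, also known as DEC1 and DEC2, are repressors that bind E-boxes themselves, REV-ERBα (the product of Nr1d1) represses Arntl, and DBP is an output factor that passes the rhythm on to other genes. BHLHE40 is also a known target of the hypoxia-inducible factors (HIFs), which bind DNA at cores close to the E-box in sequence.

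Promoter sequences are shown for 5 clock genes to place these elements next to the values that follow. They are the 250 bases before a RefSeq transcription start on GRCm38.p6 (for Per1, a start inside the GENCODE gene and one of its 2 windows), written 5′ to 3′ on the strand of the gene, and RefSeq windows were matched for 8 of the 10 genes, without Bhlhe40 and Per2. Capitals mark matches on either strand to the E-box CACGTG, the variant E-box CACGTT, the hypoxia element cores ACGTG and GCGTG, and the core TAGGTCA of the element bound by REV-ERB and ROR proteins. ACGTG lies inside CACGTG, and also inside the reverse complement of CACGTT, so these matches overlap. Per1 (chr11:69098699-69098948, plus strand) and Cry2 (chr2:92434070-92434319, minus strand) are shown because their RNAs rose, Cry1 (chr10:85185055-85185304, minus strand) and Nr1d1 (chr11:98775378-98775627, minus strand) because theirs did not pass the fold threshold, and Ciart (chr3:95882229-95882478, minus strand) because it changed most among other clock genes.
Per1: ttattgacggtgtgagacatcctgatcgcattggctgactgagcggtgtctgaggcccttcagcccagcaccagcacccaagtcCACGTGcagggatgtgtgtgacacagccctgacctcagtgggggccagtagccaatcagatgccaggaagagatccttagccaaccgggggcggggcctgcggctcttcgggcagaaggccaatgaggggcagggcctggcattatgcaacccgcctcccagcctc
Cry2: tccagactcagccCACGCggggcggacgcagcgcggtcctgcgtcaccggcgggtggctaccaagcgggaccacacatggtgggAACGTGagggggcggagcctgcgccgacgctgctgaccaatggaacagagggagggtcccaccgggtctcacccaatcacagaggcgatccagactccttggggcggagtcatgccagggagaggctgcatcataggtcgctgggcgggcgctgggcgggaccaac
Cry1: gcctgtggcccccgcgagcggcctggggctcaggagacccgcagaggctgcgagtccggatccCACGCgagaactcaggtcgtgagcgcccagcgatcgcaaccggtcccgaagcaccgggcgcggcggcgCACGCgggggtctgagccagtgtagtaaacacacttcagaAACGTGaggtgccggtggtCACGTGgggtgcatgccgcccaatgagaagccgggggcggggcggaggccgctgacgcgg
Nr1d1: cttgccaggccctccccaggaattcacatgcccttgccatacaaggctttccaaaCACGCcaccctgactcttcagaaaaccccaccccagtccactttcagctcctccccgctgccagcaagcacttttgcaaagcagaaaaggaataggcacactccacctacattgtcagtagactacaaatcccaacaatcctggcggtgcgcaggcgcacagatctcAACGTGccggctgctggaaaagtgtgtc
Ciart: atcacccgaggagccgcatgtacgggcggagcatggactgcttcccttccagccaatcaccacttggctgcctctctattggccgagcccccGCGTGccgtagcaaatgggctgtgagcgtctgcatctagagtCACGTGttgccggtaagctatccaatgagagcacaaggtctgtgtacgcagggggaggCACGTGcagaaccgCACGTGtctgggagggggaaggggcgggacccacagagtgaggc

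The E-box CACGTG lay 166 bases before the Per1 start and 60 bases before the Cry1 start, and Ciart held 3 of them, 116, 58 and 44 bases before its start. Cry2 and Nr1d1 held the variant CACGTT, 166 and 28 bases before their starts. Of the 8 matched genes, 3 held CACGTG in at least 1 window (Bhlhe41, Cry1 and Per1), 3 held CACGTT (Cry1, Cry2 and Nr1d1), 6 held ACGTG, 8 held GCGTG and 0 held TAGGTCA. These 8 genes have 11 windows, of which 3 held CACGTG, 3 CACGTT, 6 ACGTG, 9 GCGTG and 0 TAGGTCA. Among 32817 RefSeq windows of the same length, 6.02% held CACGTG, 3.85% CACGTT, 16.6% ACGTG, 28.1% GCGTG and 2.24% TAGGTCA. Matches are a description of letters, and a link between them and the changes in RNA was not tested.

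RNA-seq libraries held between 24749601 and 31925054 counts, and 16207 genes were compared between hypoxic and normoxic PSCs by edgeR's quasi-likelihood test, with p-values adjusted over all of them by the Benjamini-Hochberg method. Levels are given in CPM, which are counts per 1000000 of a library scaled by the TMM method, for replicates 1, 2 and 3 in that order, and of each pair of means the normoxic one comes first. A gene was called changed where its linear fold change passed 1.5, up or down, and its adjusted p was under 0.05. All 8 genes of a short list of oxygen-responsive genes were called higher, beside 18.9% of all tested genes. They were Vegfa, Car9, Slc2a1, Pdk1, Egln3, Adm, Bnip3 and Ankrd37, with log2 fold changes from 1.502 to 5.13. Fibroblast markers dominated every sample, with a summed level between 28087 and 35235 CPM, and the T cell marker Cd3e was at 0 counts in all 6 samples. The summed level of 8 immune markers ran from 757 to 1339 CPM in normoxic and from 376 to 661 CPM in hypoxic samples. Most of it was Lyz2, with 653 to 1164 CPM in normoxic and 315 to 546 CPM in hypoxic samples. Of the 6 tested, 4 were called lower (15.3% of all tested genes), while Ptprc and Csf1r were not called. In such bulk samples fewer cells of a type and less RNA per cell cannot be told apart. Of 6 epithelial markers only Krt19 had enough counts to be tested, and it was called higher (log2 fold change 4.94). The summed level of the list was 0.493 to 1.58 CPM in normoxic and 20.8 to 23.9 CPM in hypoxic samples. Krt19 alone had a mean of 0.715 CPM in normoxia and 22.1 CPM in hypoxia, while Epcam had 1 count in 1 sample. Endothelial markers summed to 4.06 to 7.78 CPM and 4.28 to 6.07 CPM, and 1 of 3 (Kdr) was called lower (15.3% of all tested genes). Of the 10 fibroblast markers, 2 were called higher (Pdgfra and Pdpn) and 1 lower (Lum), beside 18.9% and 15.3% of all tested genes.

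Hypoxic PSCs had more RNA of 3 of the 10 clock genes, all of them encoding repressors in the loop, as do 8 of the 10 listed. Cry2 rose 3.20-fold, Per1 2.05-fold and Bhlhe40 1.93-fold, and 0 genes were called lower. Among all tested genes 18.9% were called higher and 15.3% lower, 34.2% together, so 3 calls among 10 genes were about as many as the background gives. With the adjusted p alone, 9 of the 10 passed, 7 with a higher and 2 with a lower level in hypoxia, beside 62.7% of all genes in either direction, 31.8% higher and 31.0% lower. All 3 hypoxic samples lay above all 3 normoxic samples for 7 of the 10, which was the case for 34.9% of all tested genes, and below them for 2 of the 10, against 34.0% of all genes. Together 9 of the 10 had groups that did not overlap, beside 68.9% of all genes. The median log2 fold change was 0.47 over the 10 genes and -0.00 over all tested genes.

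**Figure D1:**
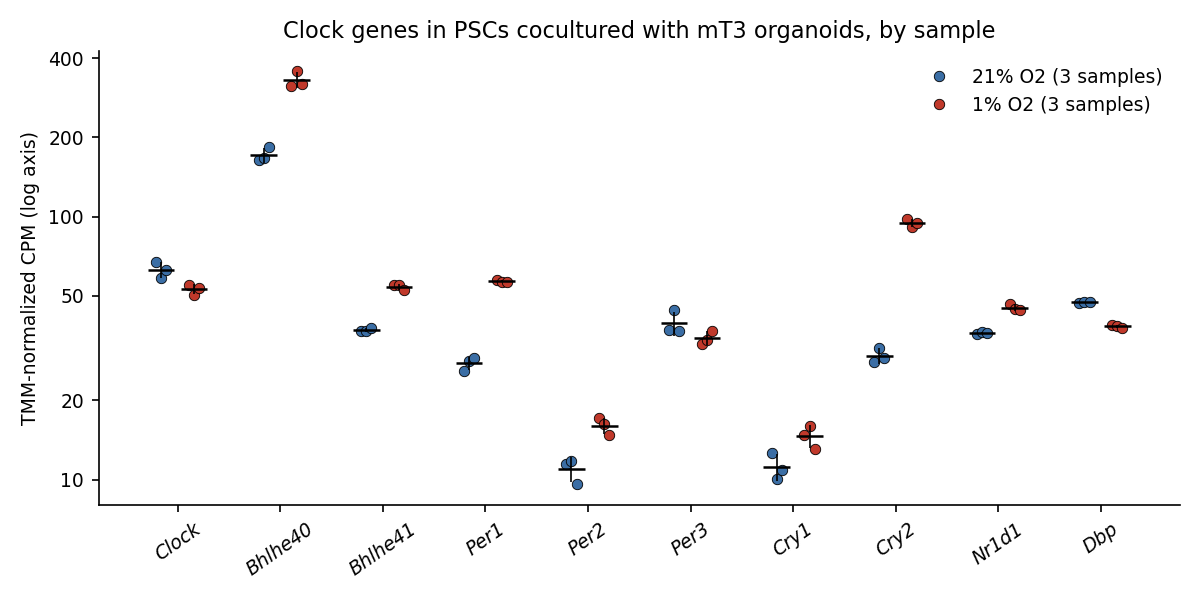
Levels of the 10 clock genes in each sample, in TMM-normalized CPM on a log axis. Points are samples at 21% O2 (blue) or 1% O2 (red), horizontal lines are means and vertical lines ± SD (n = 3). The groups overlap only for Per3, and the widest separation is that of Cry2.

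**Figure D2:**
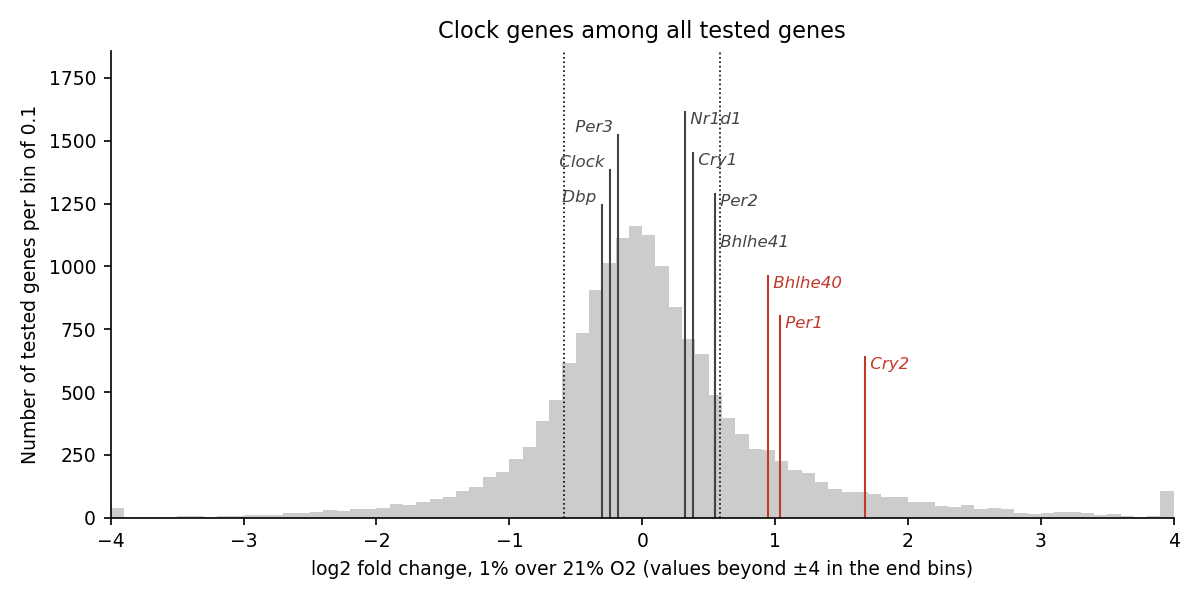
Log2 fold changes of the 10 clock genes (vertical lines) over the distribution of all 16207 tested genes, in bins of 0.1, with dotted lines at the fold threshold of 1.5. The 3 genes called higher are in red, and Cry2 lies at the 94.3 percentile of all tested genes.

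The positive arm is represented by Clock (ENSMUSG00000029238, chromosome 5, 76209868 to 76304792), which encodes the histone acetyltransferase and DNA-binding partner of BMAL1. Clock was at 67.3, 58.4 and 62.8 CPM in normoxic PSCs and at 55.2, 50.5 and 53.6 CPM in hypoxic PSCs. Every hypoxic sample lay below every normoxic sample, although hypoxic replicate 1 and normoxic replicate 2 were close. For Clock the log2 fold change was -0.24 (standard error 0.07, 95% interval -0.39 to -0.09, adjusted p = 0.0105 from edgeR), within the fold threshold. Its partners and substitutes in a wider list of clock genes had a different pattern. Arntl, the gene of BMAL1, rose from 15.4, 17.5 and 14.8 CPM to 30.3, 30.2 and 32.0 CPM. Npas2, which encodes a paralogue of CLOCK that can replace it in the dimer, rose from 2.04, 2.05 and 2.96 CPM to 8.48, 6.92 and 8.01 CPM. Arntl2, the paralogue of Arntl, rose from 8.32 ± 0.945 to 13.4 ± 0.325 CPM (SD, n = 3 each). The log2 fold changes of Arntl, Npas2 and Arntl2 were 0.95, 1.73 and 0.69, with adjusted p of 9.83e-06, 3.55e-05 and 0.00035 from edgeR, and all hypoxic samples lay above all normoxic samples for each of them.

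Cry2 (ENSMUSG00000068742, chromosome 2, 92403646 to 92434043), one of the cryptochromes that bind and inhibit the CLOCK:BMAL1 dimer, had the largest change of the 10 genes. It was at 28.0, 31.8 and 29.0 CPM in normoxic PSCs and at 98.1, 91.2 and 94.8 CPM in hypoxic PSCs. The lowest hypoxic sample was far above the highest normoxic one, and the hypoxic samples differed from each other by a factor of only 1.08. The log2 fold change of Cry2 was 1.68 (standard error 0.06, 95% interval 1.53 to 1.82, adjusted p = 1.12e-07 from edgeR). Exons of Cry2 overlap an antisense transcript, D930015M05Rik, over 4.67% of their length, and that gene, itself called higher, had a mean of 0.826 CPM in hypoxia. Cry1 (ENSMUSG00000020038, chromosome 10, 85131700 to 85185064), the other cryptochrome, was at 12.6, 10.1 and 10.9 CPM in normoxic and at 14.8, 16.0 and 13.0 CPM in hypoxic PSCs. Its groups did not overlap, but normoxic replicate 1 and hypoxic replicate 3 were nearly equal. For Cry1 the log2 fold change was 0.38 (standard error 0.11, 95% interval 0.13 to 0.64, adjusted p = 0.0159 from edgeR), within the fold threshold. The adjusted p of Cry1 went above 0.05 without normoxic replicate 3 (0.0547 from edgeR) and without hypoxic replicate 2 (0.0608 from edgeR).

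Per1 (ENSMUSG00000020893, chromosome 11, 69095217 to 69109960) is the PER gene best known for a fast response to signals from outside the cell. It rose from 25.8, 28.3 and 28.9 CPM in normoxic PSCs to 57.4, 56.5 and 56.3 CPM in hypoxic PSCs. The hypoxic samples were almost identical, within a factor of 1.02, and every one of them was well above the normoxic samples. For Per1 the log2 fold change was 1.04 (standard error 0.06, 95% interval 0.90 to 1.17, adjusted p = 1.16e-06 from edgeR). Per2 (ENSMUSG00000055866, chromosome 1, 91415982 to 91459324), the PER gene that is central to the rhythm itself, was the gene of lowest level per length in both conditions. It was at 11.5, 11.8 and 9.62 CPM in normoxic and at 17.1, 16.2 and 14.8 CPM in hypoxic PSCs, with no overlap. Its log2 fold change was 0.55 (standard error 0.10, 95% interval 0.31 to 0.78, adjusted p = 0.00147 from edgeR), a fold of 1.46 that was just under the threshold. Per2 was called higher without normoxic replicate 2 (log2 fold change 0.60) and without hypoxic replicate 3 (0.60). Per3 (ENSMUSG00000028957, chromosome 4, 151003652 to 151044665), the PER gene least needed for the rhythm, was at 36.9, 44.1 and 36.8 CPM in normoxic and at 32.9, 34.1 and 36.8 CPM in hypoxic PSCs. The groups overlapped, the highest value being that of normoxic replicate 2, without which the log2 fold change of Per3 was -0.10. For Per3 the log2 fold change was -0.18 (standard error 0.08, 95% interval -0.37 to 0.01, adjusted p = 0.0834 from edgeR), so the interval leaves room for a decrease but not for an increase like that of Per1.

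Bhlhe40 (ENSMUSG00000030103, chromosome 6, 108660629 to 108666925) encodes DEC1, the E-box repressor known to respond to hypoxia. It rose from 164, 166 and 184 CPM in normoxic PSCs to 314, 356 and 320.4 CPM in hypoxic PSCs. No hypoxic sample came near the normoxic range, and the highest hypoxic value was that of replicate 2. The log2 fold change of Bhlhe40 was 0.95 (standard error 0.07, 95% interval 0.79 to 1.11, adjusted p = 5.56e-06 from edgeR), at the 87.0 percentile of all tested genes. Bhlhe41 (ENSMUSG00000030256, chromosome 6, 145858243 to 145865558) encodes the paralogue DEC2. It was at 36.7, 36.7 and 37.7 CPM in normoxic and at 55.0, 54.8 and 52.6 CPM in hypoxic PSCs. Replicates of Bhlhe41 were tight and its groups far apart, but the fold was 1.46. Its log2 fold change was 0.55 (standard error 0.05, 95% interval 0.43 to 0.66, adjusted p = 2.2e-05 from edgeR), which was not called because of the fold threshold. An antisense gene, Gm43909, overlaps 19.1% of the exon length of Bhlhe41 and was itself called higher, from 1.64 ± 0.713 to 4.98 ± 0.639 CPM (SD, n = 3 each), and the strand setting of the counting is not given in the sources used here.

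Over the 6 samples, the genes whose pattern was most like that of Bhlhe40 were Tmsb10, Phyhd1 and Pld2. Likeness was the root mean square difference in log2 CPM, each gene centred on its normoxic mean, among 9789 genes with a mean of at least 10 CPM. It was 0.04 for each of the 3, and 523 genes lay within the wider limit of 0.2.

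Nr1d1 (ENSMUSG00000020889, chromosome 11, 98767932 to 98775333) encodes REV-ERBα, the nuclear receptor that represses Arntl. It was at 35.9, 36.3 and 36.0 CPM in normoxic and at 46.5, 44.5 and 44.2 CPM in hypoxic PSCs. The normoxic samples were nearly equal and all hypoxic samples lay above them. For Nr1d1 the log2 fold change was 0.32 (standard error 0.05, 95% interval 0.20 to 0.44, adjusted p = 0.000634 from edgeR), within the fold threshold. With an offset for GC content it was 0.16. Exons of Nr1d1 overlap those of Thra, on the opposite strand, over 8.55% of their length, and Thra was at 139 ± 2.09 CPM under 21% O2 and 159 ± 9.35 CPM under 1% O2 (SD, n = 3 each). Without strand, reads from the shared stretch cannot be told apart.

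Dbp (ENSMUSG00000059824, chromosome 7, 45705088 to 45710203) encodes a PAR bZIP transcription factor and is a widely used readout of CLOCK:BMAL1 activity. It was at 47.0, 47.4 and 47.4 CPM in normoxic and at 38.9, 38.3 and 37.7 CPM in hypoxic PSCs. Unlike the repressors Per1 and Cry2, Dbp was lower in every hypoxic sample than in any normoxic sample, with the smallest relative spread of the 10 genes in normoxia. Its log2 fold change was -0.30 (standard error 0.05, 95% interval -0.42 to -0.19, adjusted p = 0.000658 from edgeR), within the fold threshold, and with an offset for GC content it was -0.55. The antisense neighbour Sphk2 covers 18.0% of the exon length of Dbp and was at 42.3 ± 4.16 and 36.7 ± 2.13 CPM (SD, n = 3 each). The related factors split. Hlf, another PAR bZIP gene, rose from 30.1, 27.3 and 28.3 CPM to 93.8, 65.1 and 83.8 CPM, with the lowest hypoxic value in replicate 2, and a log2 fold change of 1.501 (adjusted p = 8.78e-06 from edgeR). Tef, the remaining PAR bZIP gene, was at 91.0 ± 4.81 and 76.4 ± 3.38 CPM (SD, n = 3 each), and its log2 fold change of -0.25 was within the fold threshold.

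**Figure D3:**
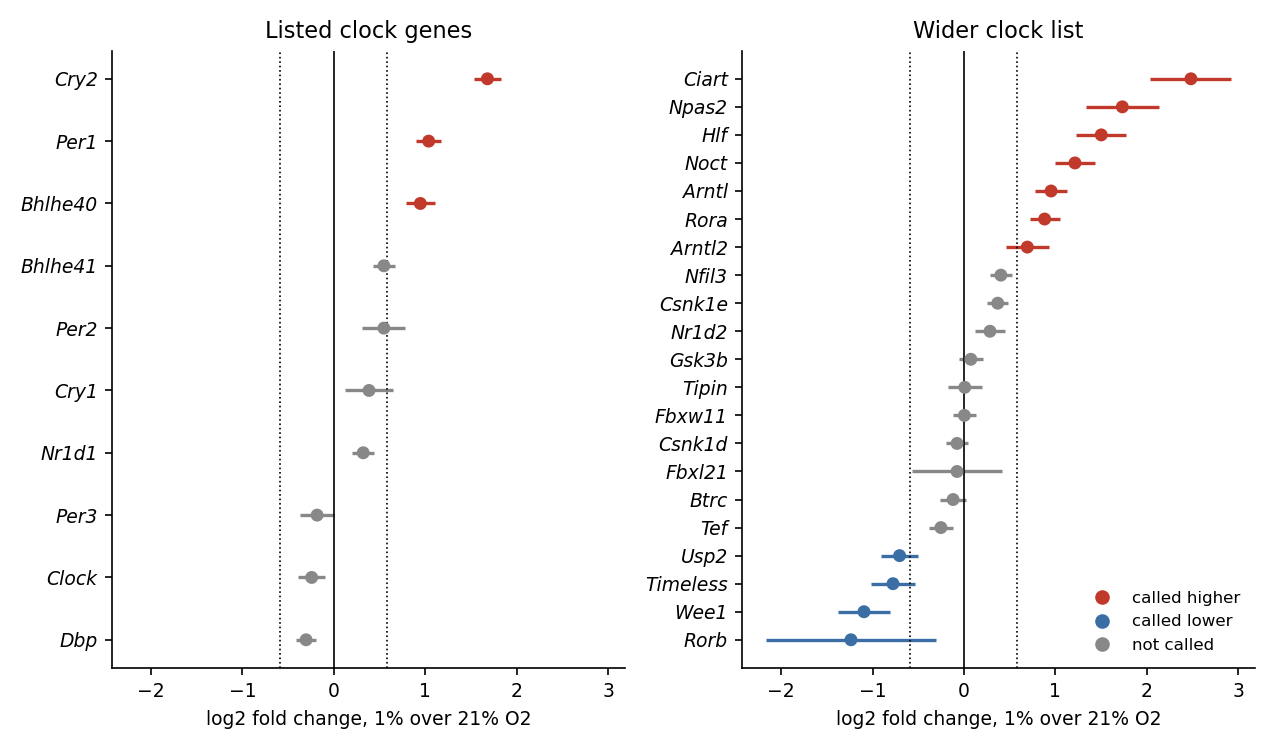
Log2 fold changes of hypoxic over normoxic PSCs with 95% intervals for the 10 clock genes (left) and tested genes of the wider clock list (right). Dotted lines mark the fold threshold of 1.5 and red, blue and gray mark genes called higher, called lower and not called. Ciart lies furthest to the right at 2.48, and Clock, Dbp and Per3 lie left of 0.

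Members of one family were also compared within the same library. Ratios of the counts of 2 genes in a sample do not depend on the scaling between libraries, and 6 such ratios were compared by an exact permutation test over samples. With 3 samples against 3 the smallest two-sided p this test can give is 0.1, so no ratio could pass 0.05, and all 6 ratios had p = 0.1 (exact permutation test, 0.1 after Benjamini-Hochberg adjustment over the 6). Cry1 over Cry2 was 0.452, 0.317 and 0.377 in normoxic and 0.151, 0.175 and 0.138 in hypoxic samples, a log2 difference of -1.29. Per1 over Per2 was 2.25, 2.39 and 3 in normoxic and 3.35, 3.49 and 3.80 in hypoxic samples, a log2 difference of 0.49. Bhlhe40 over Bhlhe41 was 4.47, 4.53 and 4.89 in normoxic and 5.72, 6.50 and 6.09 in hypoxic samples, a log2 difference of 0.40. The groups did not overlap for any of these ratios, beside 68.9% of single genes, and the share among other gene pairs was not computed. Against Clock, the log2 ratio differed by 1.19 for Bhlhe40, 0.79 for Per2 and 0.56 for Nr1d1, each with all hypoxic samples above all normoxic samples.

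**Figure D4:**
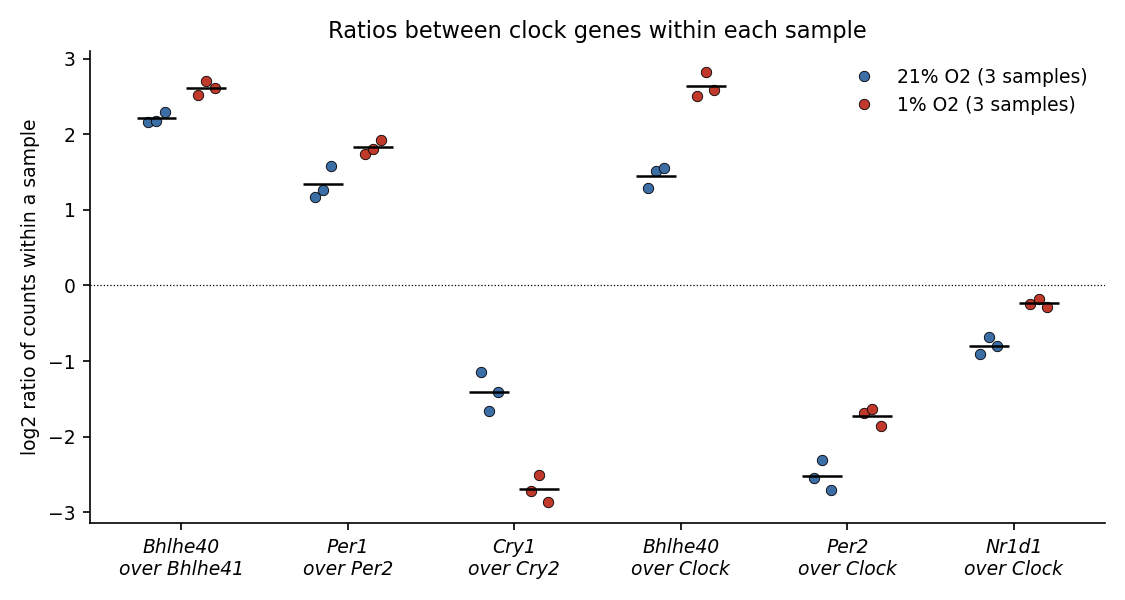
Log2 ratios of the counts of 2 clock genes within each sample, for samples at 21% O2 (blue) and 1% O2 (red), with lines at the means (n = 3). For all 6 ratios the groups are apart, and Cry1 over Cry2 is the one that is lower in hypoxia.

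Levels of different genes were compared per kilobase of exon (CPM per kb, with all annotated exons of a gene merged). Bhlhe40 had the highest level in both conditions, 36.5 ± 2.37 CPM per kb at 21% O2 and 70.2 ± 4.81 at 1% O2 (SD, n = 3 each). In normoxia Dbp (15.8), Nr1d1 (11.7), Bhlhe41 (5.51), Per1 (4.91), Cry2 (4.68), Clock (4.58), Per3 (4.09), Cry1 (3.35) and Per2 (1.87 CPM per kb) followed in this order. The ranges of Per1 and Cry2, of Cry2 and Clock and of Clock and Per3 overlapped, so these neighbours did not differ beyond their spread. In hypoxia Cry2 moved from rank 6 to rank 2 with 15.0 ± 0.546 CPM per kb, and its range overlapped that of Nr1d1 at 14.6 ± 0.417 (SD, n = 3 each). Dbp, at 12.8 CPM per kb, then ranked 4, and Per2 stayed last at 2.74. The neighbours whose ranges overlapped in hypoxia, besides Cry2 and Nr1d1, were Cry1 and Clock, and Clock and Per3.

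**Figure D5:**
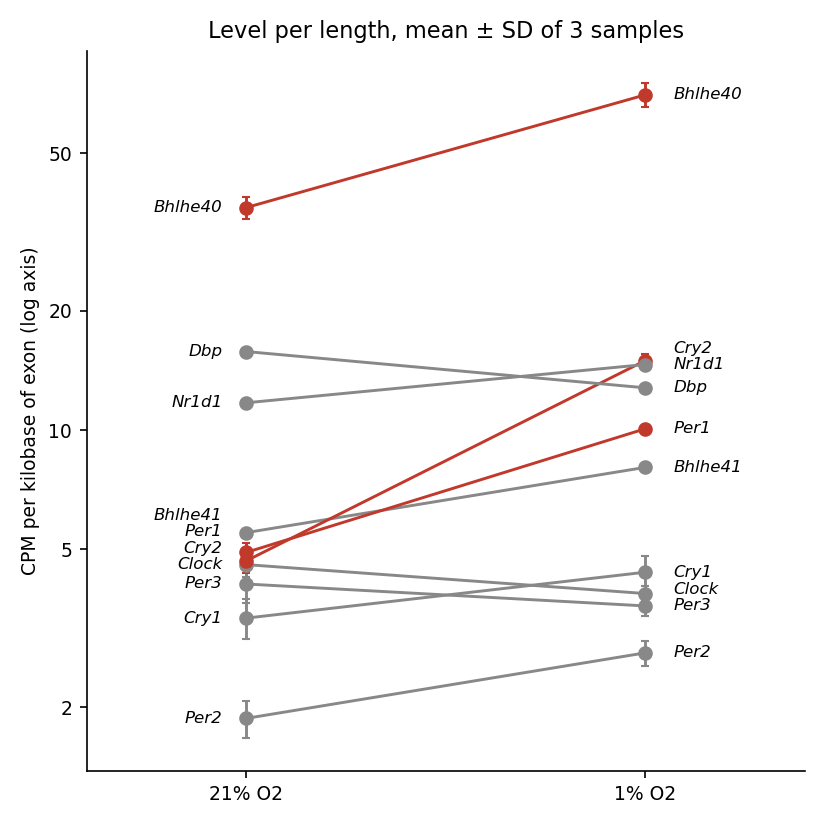
Mean level per kilobase of exon, with SD (n = 3), of the 10 clock genes at 21% O2 and 1% O2 on a log axis, with the genes called higher in red. Bhlhe40 is highest in both conditions, and the line of Cry2 crosses those of Per1, Bhlhe41, Nr1d1 and Dbp.

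Summed per length, the 3 PER genes were at 10.9 ± 0.664 CPM per kb at 21% O2 and 16.4 ± 0.0996 at 1% O2 (SD, n = 3 each). Per1 made up 44.2%, 43.2% and 48.4% of this sum in normoxic replicates 1, 2 and 3 and 61.6%, 61.4% and 61.1% in the hypoxic replicates. The share of Per3 was 37.5% ± 1.75 in normoxia and 21.9% ± 1.37 in hypoxia (SD, n = 3 each), while that of Per2 was 17.2% ± 1.69 and 16.7% ± 1.14. For the cryptochromes the sum was 8.03 ± 0.176 and 19.4 ± 0.548 CPM per kb (SD, n = 3 each), and Cry2 made up 58.3% ± 4.31 of it in normoxia and 77.4% ± 2.14 in hypoxia. The sum of Bhlhe40 and Bhlhe41 was 42.0 ± 2.46 and 78.3 ± 4.88 CPM per kb (SD, n = 3 each), with Bhlhe40 between 86.5% and 90.3% of it in every sample. These shares depend on the exon lengths used, which merge all annotated transcripts.

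Among 23 other genes of the clock pathway, 22 were tested and 11 called, 7 higher and 4 lower, with a median log2 fold change of 0.15, beside 34.2% of all tested genes called, 18.9% higher and 15.3% lower. Of the activators, Rora, whose product activates Arntl at the element that REV-ERBα blocks, rose from 75.6, 64.6 and 73.7 CPM to 140.2, 126 and 128 CPM, a log2 fold change of 0.88 (adjusted p = 9.97e-06 from edgeR). With Arntl, Arntl2 and Npas2, 4 of 5 tested activators were called higher (18.9% of all genes), and Rorb was called lower (15.3% of all genes), at 1.22 ± 0.142 and 0.527 ± 0.306 CPM (SD, n = 3 each). With an offset for gene length Arntl2 was not called (log2 fold change 0.57). The call of Rorb was lost in 3 of the 6 comparisons that left out 1 library, without normoxic replicate 1 (log2 fold change -1.19, adjusted p = 0.062), normoxic replicate 2 (-1.20, 0.0512) or hypoxic replicate 3 (-0.82, 0.0508, all from edgeR), against -1.24 with all libraries. Of the repressors, Ciart, which encodes the CLOCK:BMAL1 inhibitor CHRONO and has 3 E-boxes in the sequence above, rose from 2.46, 4.06 and 2.35 CPM to 15.2, 19.1 and 15.5 CPM. This was the largest change of the wider list, with a standard error of 0.20 around a log2 fold change of 2.48 (adjusted p = 7.56e-06 from edgeR). Nr1d2, the gene of REV-ERBβ, and Nfil3, which competes with DBP for its DNA element, had log2 fold changes of 0.28 and 0.40, within the fold threshold.

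Output genes moved in both directions. Noct, the gene of the rhythmic phosphatase nocturnin, rose from 12.1, 14.8 and 13.1 CPM to 29.1, 33.8 and 30.0 CPM, a log2 fold change of 1.21 (adjusted p = 6.92e-06 from edgeR). Usp2, a ubiquitin protease gene with strong rhythms in many tissues, fell from 12.8, 13.4 and 13.3 CPM to 8.25, 7.69 and 8.30 CPM, a log2 fold change of -0.70 (adjusted p = 0.000118 from edgeR). Wee1, the gene of a kinase that delays entry into mitosis, fell from 15.4, 12.9 and 12.0 CPM to 6.24, 6.89 and 5.75 CPM, a log2 fold change of -1.09 (adjusted p = 6.9e-05 from edgeR). Timeless, whose product works at the replication fork, fell from 20.1 ± 2.51 to 11.7 ± 0.888 CPM (SD, n = 3 each), while its fork partner Tipin was at 18.4 ± 1.17 and 18.6 ± 1.295 CPM. Of the 7 genes of kinases and ubiquitin ligase parts that set the stability of PER and CRY proteins, 0 were called by edgeR, DESeq2 or limma, beside 34.2% of all genes by edgeR, with log2 fold changes from -0.12 to 0.37, and 2 had an unadjusted p under 0.05 by edgeR. Among them Csnk1e, the gene of casein kinase 1 epsilon, was at 67.5 ± 2.45 and 87.1 ± 1.51 CPM (SD, n = 3 each), and its log2 fold change of 0.37 was within the fold threshold.

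The summed level of immune markers, which was lower in hypoxia and mostly that of Lyz2, also varied between replicates. The highest normoxic sample had 1.77 times the lowest and the highest hypoxic sample 1.76 times the lowest, and both were replicate 2. The same factors were 1.14 and 1.08 for Cry2, 1.12 and 1.02 for Per1, and 1.12 and 1.13 for Bhlhe40. With both libraries numbered 2 left out, which leaves the lower level of immune markers in hypoxia in place, the log2 fold changes of these genes were 1.76, 1.05 and 0.86, all called higher, and Per2 was called as well with 0.59. The part of immune cells in these results was not tested.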

How the data were processed

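RNA from 6 samples, 3 at 21% O2 and 3 at 1% O2, was analysed. The authors made poly(A) libraries, trimmed adapters with Cutadapt and, per the labels, mapped reads to GRCm38 with STAR (2.6.1b) and estimated counts with RSEM (1.3.1). The deposited values are expected counts per gene for 55426 features, not normalized between samples, and 0 of them had a fraction. GENCODE M21 gave names, coordinates and exon lengths, since the annotation release of the authors is not given in the sources used here.

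The counts were analysed with edgeR 4.0.16 (R 4.3.3): filterByExpr, TMM and the quasi-likelihood test without a replicate block, fitted on all 16207 genes. CPM refer to the summed counts of the tested genes. For ratios, 0.5 was added to each count. The standard error is the log2 fold change divided by the square root of F, and intervals are at 95%. At these depths 3 counts correspond to 0.0943 to 0.122 CPM, which covers counting error only. No source says that samples of one condition came from separate PSC lines, so p-values measure the spread between these samples. Within a condition no pair of libraries matched within sampling noise (chi-square of 5.68 to 22.5 per degree of freedom). RSEM divides reads shared by similar genes by an estimate.

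The genes, the wider clock list, the markers and the tests were chosen with earlier results of these data known. All 10 clock genes are named, and every called gene of the wider list, with examples of the others chosen after their values were seen. Alternatives were the replicate block, RLE, upper-quartile and library-total scaling, other filters, DESeq2 1.42.0, limma-voom (limma 3.58.1), other fold thresholds and each library left out. Offsets for gene length and GC content, and leaving out both libraries numbered 2, were added after the data were seen. The fits were tested on simulated data. Some items of the wider list are not reported here.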

Additional observations from a re-analysis of the deposited data

How the results depend on the processing

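Direction did not change for any of the 10 clock genes under the 18 alternatives run for each, and their calls were the same in 177 of 180 values. The 3 exceptions were calls of Per2. These do not include other fold thresholds. The log2 fold change ran from 1.54 to 1.76 for Cry2, 0.83 to 1.06 for Per1 and 0.81 to 0.99 for Bhlhe40. It ran from 0.16 to 0.33 for Nr1d1, lowest with the GC offset, from -0.55 with that offset to -0.30 for Dbp, from 0.24 without both libraries numbered 2 to 0.48 for Cry1, and from -0.27 to -0.08 for Per3. Adjusted p-values of Cry1 ran from 0.00829 to 0.0996 and those of Per3 from 0.0173 to 0.366 by edgeR, DESeq2 or limma. With no fold threshold, 9 clock genes passed (7 higher, 2 lower), 16 genes of the wider list passed (11 higher, 5 lower), and 10168 of all genes passed (5150 higher, 5018 lower). With a fold threshold of 2, 2 clock genes passed, Cry2 and Per1, and Bhlhe40 (1.93-fold) did not. At that threshold 6 genes of the wider list (4 higher, 2 lower) and 3156 of all genes (1929 higher, 1227 lower) passed. With each library left out, between 3 and 4 clock genes, 10 and 11 of the wider list and 5226 and 5662 of all genes were called. Without a fold threshold and with offsets for length or GC, the split of calls over all genes changed from 55.3% higher to 50.6%, 47.5% and 47.3%, and the length offset ended the call of Arntl2 (log2 fold change 0.57). Leaving out both libraries numbered 2 ended that of Rorb (log2 fold change -1.34, adjusted p = 0.0505 from edgeR).

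Deviations from the group mean correlated at 0.14, 0.14 and 0.04 between samples that share a replicate number. Each normoxic sample correlated best with the hypoxic sample of its own number, and no source says that the samples were paired. With the replicate block edgeR called 5572 genes, 3072 of them higher and 2500 lower, and the same counts of clock genes (3) and of the wider list (11), and it changed no call of a clock gene. Paired by number, the mean differences of the 6 log2 ratios are those given without pairing by construction, for example -1.29 for Cry1 over Cry2, and 3 pairs cannot give an exact two-sided p under 0.25.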
